A study of Homo sapiens with 7 samples.

Results

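The 10 glycolytic enzymes described here were HK2, GPI, PFKL, ALDOA, GAPDH, PGK1, ENO1, ENO2, PKM and LDHA, followed across 7 arrays of interferon-treated and untreated Huh7 cells. They were chosen by gene symbol, with all their probes: 12 of the 31741 probes on the array and 10 of the 12835 genes compared. PFKL and ALDOA each had a pair of probes, the other genes 1 each, and all 10 genes passed the filter on dim genes. ENO2 and GAPDH were set against the rest of the pathway. Huh7 is a human hepatoma cell line. Per the labels, cultures received IFN-α (10 IU/ml), or one of the type III interferons IFN-λ1 and IFN-λ4 (20 ng/ml each), and RNA was taken after 6 h or 16 h. Each interferon at each time was 1 array, and 1 array held untreated cells at 0 h, so the 7 arrays gave 7 conditions with no repeat. All arrays shared the cell line and the Cy5 labelling, IFN-α was dosed in units of activity and the IFN-λ pair by mass, and the untreated array of 0 h has no counterpart at either time.

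Glycolysis breaks glucose down to pyruvate in the cytosol, and lactate dehydrogenase can turn that pyruvate into lactate so that the pathway keeps running. Hexokinase traps glucose in the cell, phosphofructokinase is a main control point, GAPDH carries out the oxidative step, and phosphoglycerate kinase and pyruvate kinase make ATP. Hepatoma cells use HK2 and PKM where healthy hepatocytes use glucokinase and the liver pyruvate kinase, and several genes of the pathway are targets of hypoxia-inducible factor. ENO1 is the widely expressed enolase, ENO2 is the isoform known from neurons and neuroendocrine cells, and GAPDH is widely used as a reference gene.

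RefSeq promoter windows of 250 bases before the transcript start (GRCh38.p14) were available for all 10 genes, 14 windows in all. The windows of the enolase pair, of PFKL and of GAPDH are shown because ENO2, PFKL and GAPDH were the members that differed most between arrays and ENO1 is the other enolase, with one of the narrowest ranges. Capitals mark ACGTG or GCGTG, the hypoxia response core, on either strand, so that a match on the other strand reads CACGT or CACGC.
ENO2, chr12:6914330-6914579, plus strand: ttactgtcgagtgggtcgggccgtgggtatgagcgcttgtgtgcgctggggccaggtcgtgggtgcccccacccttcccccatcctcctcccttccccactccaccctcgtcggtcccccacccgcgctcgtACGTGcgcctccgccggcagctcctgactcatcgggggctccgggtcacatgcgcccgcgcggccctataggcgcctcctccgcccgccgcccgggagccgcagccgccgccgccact
ENO1, chr1:8878687-8878936, minus strand: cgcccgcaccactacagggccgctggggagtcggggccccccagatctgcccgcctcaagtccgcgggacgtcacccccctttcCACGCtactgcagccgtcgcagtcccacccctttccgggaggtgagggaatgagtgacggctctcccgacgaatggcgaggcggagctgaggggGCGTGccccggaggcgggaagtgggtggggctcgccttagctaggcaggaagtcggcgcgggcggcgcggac
PFKL, chr21:44299803-44300052, plus strand: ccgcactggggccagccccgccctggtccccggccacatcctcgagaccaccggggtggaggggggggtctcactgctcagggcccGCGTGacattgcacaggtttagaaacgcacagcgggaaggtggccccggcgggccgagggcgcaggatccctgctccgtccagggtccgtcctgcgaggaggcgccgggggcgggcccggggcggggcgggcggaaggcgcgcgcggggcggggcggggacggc
GAPDH, chr12:6535014-6535263, plus strand: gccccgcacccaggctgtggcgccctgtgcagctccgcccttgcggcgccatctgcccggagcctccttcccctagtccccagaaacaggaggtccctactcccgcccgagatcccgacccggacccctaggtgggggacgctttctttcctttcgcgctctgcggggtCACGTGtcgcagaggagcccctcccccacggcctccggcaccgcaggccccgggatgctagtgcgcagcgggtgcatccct
The windows of ENO2, ENO1 and PFKL end at the annotated gene start, while the GAPDH window lies inside the annotated gene (6534517 to 6538371), before the start of a shorter transcript. ENO2 held 1 ACGTG, 118 bases before the start. ENO1 held GCGTG at 166 and 72 bases before the start, on opposite strands, and PFKL held 1 GCGTG at 164 bases. The GAPDH window held CACGTG, which counts once on each strand, and CACGTG was also in windows of HK2, ALDOA and LDHA. A match of letters is not a binding site, and what binds at these sites was not tested. ACGTG was present in 7 of the 10 members against 18.5% of 35116 promoter windows, GCGTG in 5 against 32.2%, and at least one of them in 9 against 43.2%, PKM being the gene without either. The interferon-stimulated response element core, a pair of GAAA repeats 2 bases apart on either strand, was in none of the 14 member windows and in 3.02% of all windows. The member windows were 53.2% to 78% G or C, against a median of 58% over all windows, and a gene with several windows had more chances of a match.

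The median intensity of all probes lay between 494 and 633 on the 7 arrays, and the number of arrays limits the precision of every value. As a check of the interferon labels, the response gene ISG15 rose by 4.498 ± 0.41 log2 units and was higher than untreated on all 6 treated arrays (SE, 6 arrays against 1; limma with Benjamini-Hochberg adjustment, adjusted p = 0.00127). IFI6 and OAS1 rose too (limma, adjusted p = 0.00674 and 0.00431), from 120 and 118 in untreated cells to 3687 to 15038 and 3077 to 10255. Their untreated values lay below the dim level of 265, so no size is given. The dim level is the 30th percentile of mean intensity, which genes had to exceed to be tested. Hepatocyte markers were bright, 9 of 9 with a probe standing above the dim level on average. Deposited intensities are given below as measured, and log2 differences after quantile normalization. The p-values measure only the spread between these arrays, which were single samples of their conditions.

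ENO2 was higher than untreated after IFN-α and lower after both IFN-λ. Its deposited intensity was 6533 in untreated cells, 8869 and 26311 after IFN-α at 6 h and 16 h, 2373 and 3456 after IFN-λ1, and 4130 and 4519 after IFN-λ4. Both IFN-α arrays lay above the untreated array, all 4 IFN-λ arrays lay below it, and the IFN-α and IFN-λ arrays did not overlap. The log2 differences from untreated were 0.46 and 2.18 for the IFN-α arrays, -1.50 and -0.90 on the IFN-λ1 arrays, and -0.62 and -0.51 on the IFN-λ4 arrays. ENO2 was thus 4.52-fold above untreated with IFN-α at 16 h and 2.83-fold below it with IFN-λ1 at 6 h. Neither median centring nor the deposited scaling turned any of these signs. Higher on both IFN-α arrays and lower on all 4 IFN-λ arrays, by any amount, was the case for 1.56% of all genes. In bulk RNA, fewer cells with a transcript and less of it per cell cannot be told apart.

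GAPDH was lower at 6 h than at 16 h with each interferon. Its deposited intensity was 137596 in untreated cells, 49026 and 137172 after IFN-α at 6 h and 16 h, 105073 and 153392 after IFN-λ1, and 111381 and 152503 after IFN-λ4. The 6 h array of IFN-α stood apart as the lowest, all 3 arrays of 6 h lay below all 3 of 16 h, and the arrays of 16 h were close to the untreated one. The log2 differences from untreated were -1.58 and 0.04 for IFN-α, -0.45 and 0.14 for IFN-λ1, and -0.41 and 0.14 for IFN-λ4. GAPDH was thus 2.997-fold below untreated with IFN-α at 6 h. With median centring these differences were -1.19, -0.06, -0.37, 0.30, -0.04 and 0.29, so the sign of IFN-α at 16 h turned, as it did with the deposited scaling (-0.0045). With median centring IFN-λ4 at 6 h was also no longer below IFN-α at 16 h. After quantile normalization GAPDH was among the 1.49% of genes that lay below untreated on all 3 arrays of 6 h and above it on all 3 of 16 h. Median centring moved the median of all genes to 0.22 with IFN-α at 6 h, -0.17 with IFN-α at 16 h and 0.22 with IFN-λ4 at 6 h. GAPDH has many processed pseudogenes, and whether its probe also binds their transcripts was not tested.

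PFKL, the liver-type subunit of phosphofructokinase, was lower than untreated on all 6 treated arrays with both of its probes. The brighter probe, which stands for the gene, gave 7966 in untreated cells, 1175 and 3659 after IFN-α at 6 h and 16 h, 5822 and 5449 after IFN-λ1, and 4795 and 6429 after IFN-λ4. The second probe gave 5279 untreated, 715 and 1760 with IFN-α, 2402 and 3495 on the IFN-λ1 arrays, and 1207 and 3854 on the IFN-λ4 arrays. With either probe the untreated array was the highest and IFN-α at 6 h the lowest. The brighter probe put both IFN-α arrays below all IFN-λ arrays. The second probe did not, because its array of IFN-λ4 at 6 h was below that of IFN-α at 16 h. The log2 differences of the brighter probe were -2.60 and -1.09 with IFN-α, -0.50 and -0.54 on the IFN-λ1 arrays, and -0.72 and -0.31 on the IFN-λ4 arrays, a 6.08-fold lower value with IFN-α at 6 h. Those of the second probe were -2.70, -1.63, -1.18, -0.59, -2.02 and -0.44 in the same order, so it was at least 2-fold lower on 4 arrays where the brighter probe was so on 2. Lower than untreated on all 6 treated arrays was the case for 11.5% of all genes. The sign of PFKL was the same under each of the 3 scalings on every array.

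**Figure D1:**
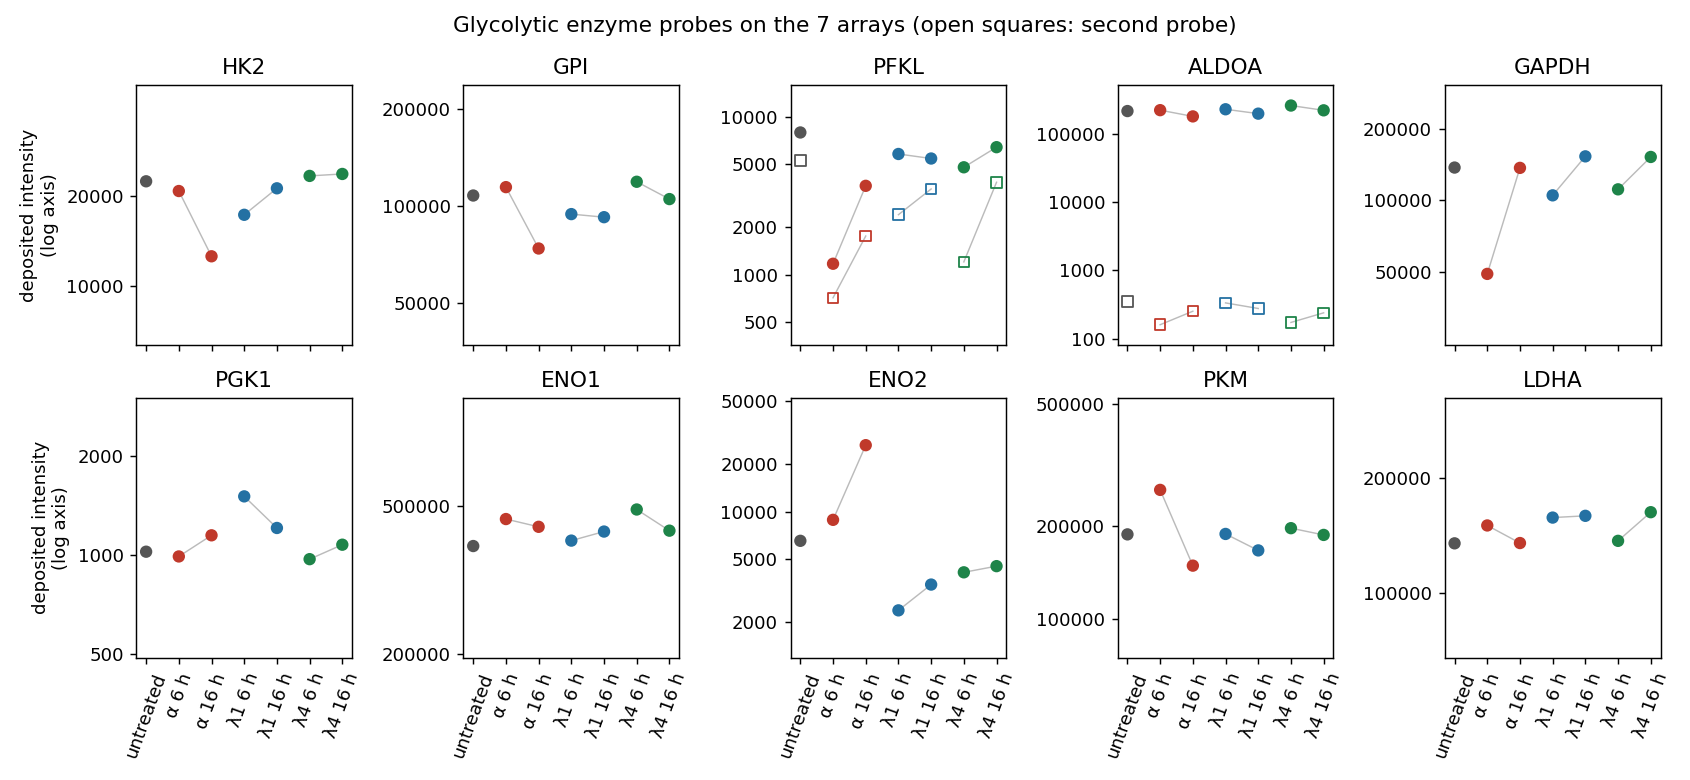
Deposited intensity (log axis, own scale for each gene) of every glycolytic enzyme probe on the 7 arrays, filled circles for the probe that stands for the gene, open squares for a second probe, and grey lines joining 6 h and 16 h of 1 interferon. ENO2 reaches 26311 with IFN-α at 16 h, GAPDH drops to 49026 with IFN-α at 6 h, and both PFKL probes are highest in untreated cells.

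The early steps other than phosphofructokinase differed less. HK2, which phosphorylates glucose, read 22509 in untreated cells, 20868 and 12555 with IFN-α, 17343 and 21313 on the IFN-λ1 arrays, and 23474 and 23832 on the IFN-λ4 arrays. Its lowest array was IFN-α at 16 h, with a log2 difference of -0.73, and the other 5 lay between -0.44 and 0.09. GPI, which isomerizes the phosphorylated glucose to fructose phosphate, read 107737 untreated and 73732 to 118883 on the treated arrays. IFN-α at 16 h was again the lowest array, with a difference of -0.36. ALDOA, the aldolase that splits the sugar, read 213395 untreated and 178289 to 256955 after treatment, with differences of -0.24 to 0.17. A second ALDOA probe read only 161 to 354, near the dim level of 265, and after normalization was lower than untreated on 6 of 6 arrays, at -0.86 to -0.06, while the bright probe was higher on 3 and lower on 3.

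Apart from GAPDH and ENO2, the later steps also differed less, each read by 1 probe, that of PGK1 being the dimmest. PGK1, the first ATP-making enzyme, read 1025 untreated, 992 and 1150 with IFN-α, 1512 and 1211 on the IFN-λ1 arrays, and 973 and 1077 on the IFN-λ4 arrays. After normalization it was higher than untreated on 6 of 6 arrays, by 0.10 to 0.55, which was the case for 10.6% of all genes, while its deposited intensity was below untreated on IFN-α at 6 h and IFN-λ4 at 6 h. ENO1 read 389700 untreated and 403016 to 488653 after treatment, with differences of -0.04 to 0.24. It was the brightest of all probes on both IFN-λ4 arrays, so that quantile normalization gave those arrays the same value. PKM, the pyruvate kinase gene of most tissues, read 188474 untreated, 263226 and 149040 with IFN-α, and 167104 to 197456 with IFN-λ. Its 2 IFN-α arrays were its extremes, with differences of 0.40 at 6 h and -0.28 at 16 h. LDHA, which makes lactate, read 134960 untreated and 135201 to 162937 after treatment, with differences of -0.11 to 0.26.

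**Figure D2:**
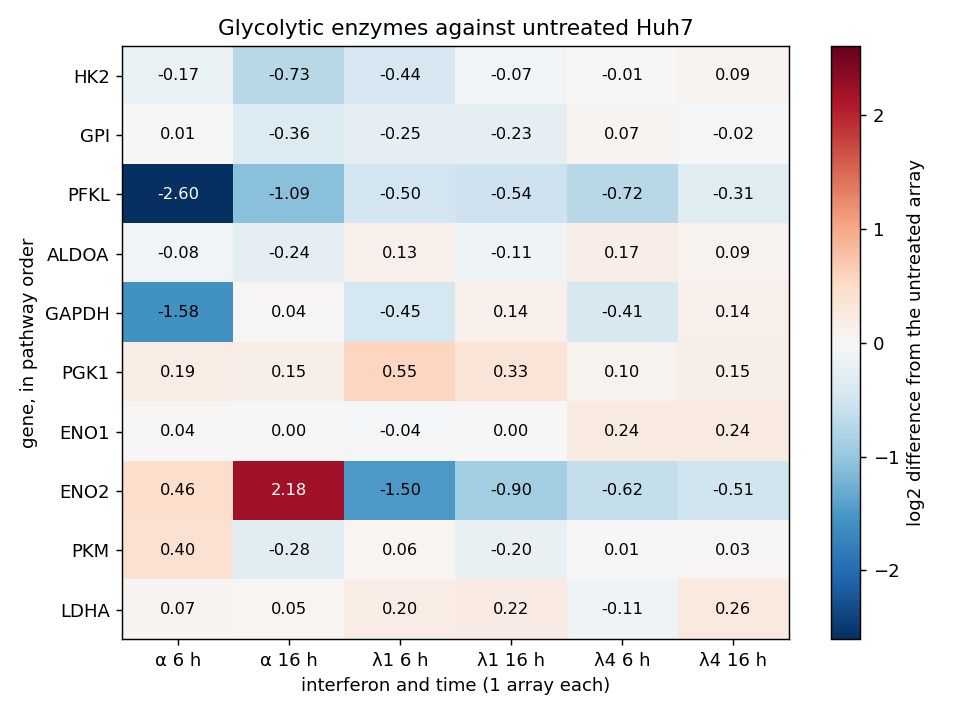
Log2 difference of each glycolytic enzyme from the untreated array (colour and printed value), 1 column for each interferon and time and 1 row for each gene in pathway order, the brighter probe standing for PFKL and ALDOA. The cells past 2-fold are PFKL on both IFN-α arrays, GAPDH with IFN-α at 6 h, and ENO2 with IFN-α at 16 h and IFN-λ1 at 6 h.

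Differences between single arrays were counted at 2-fold, with no p-value. With IFN-α at 6 h, PFKL and GAPDH were 2 of 10 members at least 2-fold lower, against 2.83% of all genes, and 0 were at least 2-fold higher, against 3.9%. With IFN-α at 16 h, ENO2 was the 1 member at least 2-fold higher, against 5.75% of all genes, and PFKL the 1 member lower, against 3.45%. With IFN-λ1 at 6 h ENO2 was the 1 member lower, against 0.662%, and 0 were higher, against 1.07%. No member was at least 2-fold higher with IFN-λ1 at 16 h (0.958% of all genes), IFN-λ4 at 6 h (2.04%) or IFN-λ4 at 16 h (0.989%). None was at least 2-fold lower on these arrays, against 0.234%, 1.23% and 0.203% of all genes. The median over the 10 members lay between -0.14 and 0.09 on the 6 arrays, and that over all genes between -0.08 and 0.03. With the mean of its probes PFKL was also at least 2-fold lower with IFN-λ4 at 6 h, at -1.37. The counts use the probe that stands for each gene. The second PFKL probe alone was also 2-fold lower with IFN-λ1 at 6 h (-1.18) and IFN-λ4 at 6 h (-2.02).

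Set against the 8 members other than ENO2 and GAPDH, ENO2 was past 2-fold from their median with IFN-α at 16 h and IFN-λ1 at 6 h, and closer on the others. ENO2 minus the median of the 8 was 0.43 and 2.44 log2 units on the IFN-α arrays of 6 h and 16 h, -1.51 and -0.82 on the IFN-λ1 arrays, and -0.66 and -0.60 on the IFN-λ4 arrays. It lay outside the range of all 8 on 5 of 6 arrays, the exception being IFN-λ4 at 6 h, where PFKL was lower still. With IFN-α at 6 h it was only just above PKM, at 0.46 against 0.40 from untreated. GAPDH minus the same median was -1.61 and 0.30 with IFN-α, -0.46 and 0.23 on the IFN-λ1 arrays, and -0.45 and 0.05 on the IFN-λ4 arrays. GAPDH lay inside the range of the 8 on all 6 arrays, because PFKL was lower on the 3 arrays of 6 h. Each of these differences uses the same untreated array.

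**Figure D3:**
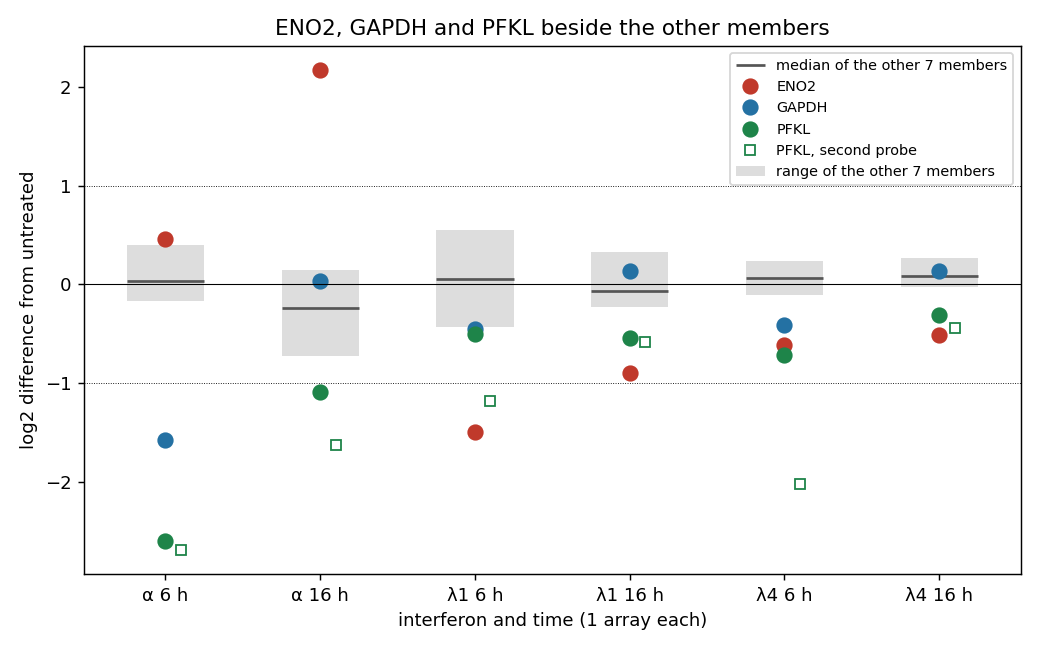
Log2 difference from the untreated array (y) for ENO2, GAPDH and both PFKL probes on each treated array (x), beside the range (grey bar) and median (line) of the other 7 members, dotted lines marking 2-fold. ENO2 sits above the bar on both IFN-α arrays and below it on all 4 IFN-λ arrays, and PFKL sits below the bar on all 6.

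The times were compared over the 3 interferons, with interferon as a block. GAPDH was higher at 16 h than at 6 h by 1.62 log2 units with IFN-α, 0.59 with IFN-λ1 and 0.55 with IFN-λ4. ENO2 was higher by 1.72, 0.60 and 0.11 in the same order, while PFKL stood at 1.51, -0.04 and 0.41 with the brighter probe and 1.07, 0.60 and 1.58 with the second. These 3 genes were the members at least 2-fold higher at 16 h with IFN-α, where 4.29% of all genes were, and 0 members were at least 2-fold lower, against 3.93%. No member passed 2-fold between the times with IFN-λ1 (0.499% of genes higher, 0.53% lower) or IFN-λ4 (1.58% and 1.02%). These counts use the probe that stands for each gene, and the second PFKL probe was past 2-fold higher at 16 h with IFN-λ4. PKM was lower at 16 h by -0.68 with IFN-α and -0.25 with IFN-λ1, and stood at 0.01 with IFN-λ4. GAPDH was the one member whose arrays of 16 h all lay above those of 6 h, as did 6.13% of genes. In the limma fit GAPDH stood 0.92 ± 0.23 log2 units higher at 16 h (SE, 3 arrays against 3, 95% interval 0.38 to 1.46, adjusted p = 0.2025) and ENO2 0.81 ± 0.30 (adjusted p = 0.291). Neither passed the test, and no member was called, against 0% of all genes. At an unadjusted p under 0.05 there were 2 members and 1941 genes, which is 15.1% of those tested. Without either IFN-α array GAPDH stood at 0.57 and passed (limma, adjusted p = 0.00611 without 6 h and 0.00514 without 16 h), with 20.4% and 20.9% of all genes called and 1 residual degree of freedom. The block then leaves only the IFN-λ arrays to compare the times.

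The interferon types were compared with time as a block, at doses in different units. ENO2 was higher with IFN-α than with the mean of both IFN-λ by 1.52 log2 units at 6 h and 2.88 at 16 h. PFKL was lower with IFN-α by -1.99 at 6 h and -0.67 at 16 h, and GAPDH by -1.16 and -0.10. At 6 h, ENO2 was the 1 member at least 2-fold higher with IFN-α (2.24% of genes), and PFKL and GAPDH were the 2 lower (1.21%). At 16 h, ENO2 was the 1 member higher (5.26%) and 0 were lower (2.45%). The PFKL values here are those of its brighter probe. Its second probe stood at -1.63 from untreated with IFN-α at 16 h, against -0.59 with IFN-λ1 and -0.44 with IFN-λ4, thus past 2-fold lower. ENO2 was the one member whose IFN-α arrays both lay above all IFN-λ arrays, as did 10.8% of genes. PFKL, by its brighter probe only, was the one with both below, as were 12.3% of genes. In the limma fit ENO2 stood 2.20 ± 0.32 log2 units higher (SE, 2 arrays against 4, 95% interval 1.43 to 2.97, adjusted p = 0.0680), just short of the threshold of 0.05. PFKL stood at -1.33 ± 0.32 (adjusted p = 0.127) and GAPDH at -0.63 ± 0.24 (adjusted p = 0.253, limma). No member was called, against 0.156% of all genes, and 3 members had an unadjusted p under 0.05, against 17.5%.

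ENO2 passed under 1 of 8 other settings on the same arrays. That was median centring, at 2.10 (limma, adjusted p = 0.0296), where 1.02% of genes were called, and the other 7 gave adjusted p = 0.0505 to 0.0911 (limma). Of the 6 fits that left out an array, with 1 residual degree of freedom, 4 put ENO2 past the threshold, and leaving out IFN-λ1 at 6 h or 16 h did not (limma, adjusted p = 0.0603 and 0.111). The 4 that did gave 2.88 without IFN-α at 6 h, 1.52 without IFN-α at 16 h, 2.46 without IFN-λ4 at 6 h and 1.94 without IFN-λ4 at 16 h. Without an IFN-λ4 array the standard error was 0.33 against the reported 0.32, and why these fits passed the threshold was not tested. Without an IFN-α array the other one stands alone for IFN-α, its values are those of the single time above, and the p rests on the spread among the IFN-λ arrays alone, so that it holds no measure of how IFN-α arrays vary. The shares of all genes called in the 4 fits were 26.9%, 15.2%, 4.1% and 2.24%. PFKL was past the threshold in the same 4 fits, at -0.67, -1.99, -1.25 and -1.41, the first pair again single IFN-α arrays. The other pair had a standard error of 0.35, against 0.32 in the reported fit. The same limit holds for GAPDH, past it without IFN-α at 16 h at -1.16, and for HK2, past it without IFN-α at 6 h at -0.74.

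**Figure D4:**
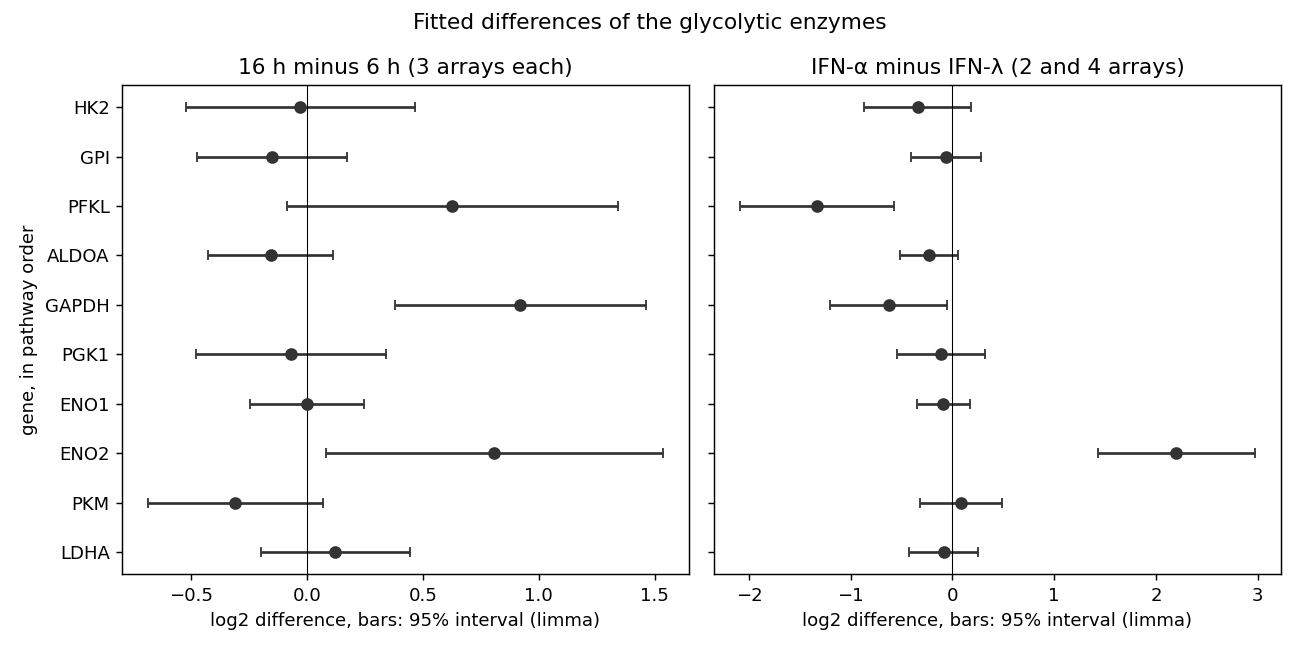
Fitted log2 difference of each glycolytic enzyme (points) with its 95% interval from limma (bars), for 16 h minus 6 h (left, 3 arrays each) and IFN-α minus IFN-λ (right, 2 and 4 arrays). ENO2 at 2.20 stands farthest from 0 on the right and GAPDH at 0.92 on the left, and neither passes the adjustment over all 12835 genes.

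Between the IFN-λ pair the members differed little. ENO2 was higher with IFN-λ4 than with IFN-λ1 by 0.89 log2 units at 6 h and 0.39 at 16 h. No member differed by 2-fold at 6 h (0.569% of genes higher, 0.514% lower) or 16 h (0.132% and 0.0545%). The limma fit gave ENO2 0.64 ± 0.37 (95% interval -0.25 to 1.53, adjusted p = 0.9996) and GAPDH 0.02 ± 0.28 (95% interval -0.64 to 0.68). No member was called, against 0% of all genes, and 0 members and 304 genes, 2.37%, had an unadjusted p under 0.05. The interval of ENO2 reaches past 2-fold.

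Over all 6 treated arrays against the untreated one, no member was called by limma, against 0.117% of all genes, and no member had an unadjusted p under 0.05, against 2%. PFKL had the largest difference among the members, -0.96 ± 0.68 (SE, 6 arrays against 1, adjusted p = 0.999). ENO2, whose arrays lay on both sides of untreated, stood at -0.15 ± 1.01. The untreated arm is a single array, so its own spread does not enter these values.

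The range over the 7 arrays, the highest minus the lowest normalized log2 value, separated the members into wide and narrow ones. It was 3.68 for ENO2, 2.60 for PFKL and 1.72 for GAPDH, and 99.2%, 98.1% and 94.5% of all genes had a smaller range. The other 7 members ranged from 0.28 for ENO1 to 0.82 for HK2, with a median of 0.43, and HK2 was the one above the median of 0.74 over all genes. In deposited values LDHA had the narrowest range, 0.27 against 0.33 for ENO1. LDHA (0.37), ALDOA (0.40) and GPI (0.43) were among the narrower, with 7.07%, 9.37% and 11.9% of genes below them, and PGK1 (0.55) and PKM (0.68) lay between. For comparison, 9 housekeeping genes above the dim level ranged from 0.35 to 1.08, so GAPDH had a wider range than each of them. Highest over lowest deposited intensity was 11.1 for ENO2, 6.78 and 7.38 for the PFKL probes and 3.13 for GAPDH.

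**Figure D5:**
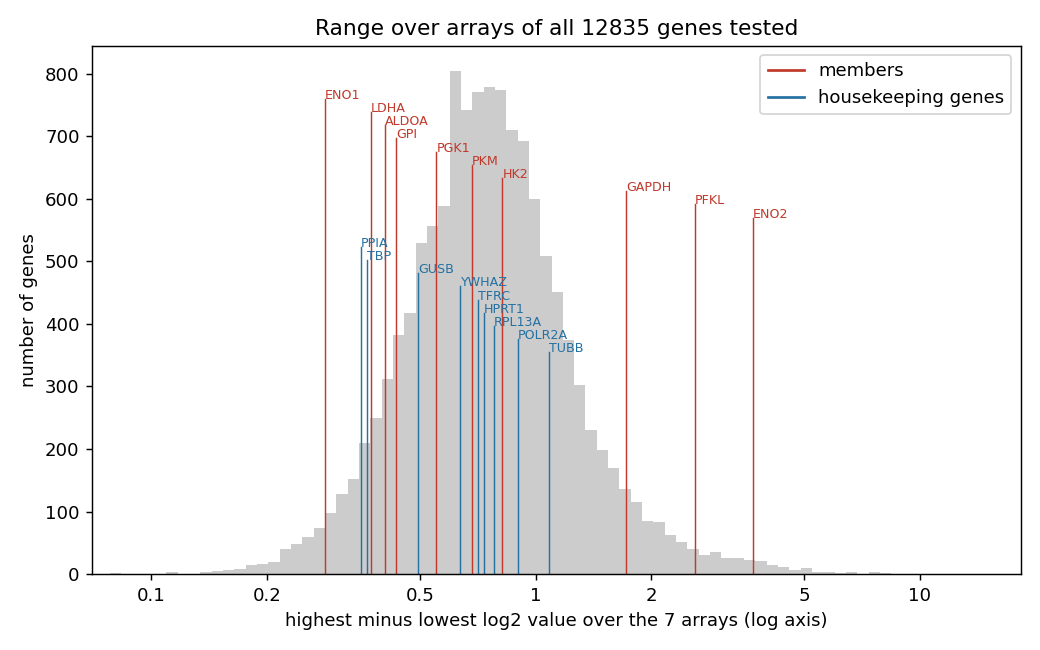
Number of genes (y) by range over the 7 arrays in log2 units (x, log axis) for all 12835 genes, with lines at the 10 glycolytic enzymes (red) and 9 housekeeping genes (blue). ENO2, PFKL and GAPDH lie in the right tail and the other 7 members between 0.28 and 0.82.

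The rest of glucose metabolism was followed through gene lists written from general knowledge. Of 21 other glycolytic enzymes and isoforms 12 were tested, and their median difference lay between -0.22 and 0.15 on the 6 arrays. LDHB, the heart-type lactate dehydrogenase subunit, read 1126 untreated, 3571 and 3961 with IFN-α, 1350 and 818 on the IFN-λ1 arrays, and 1519 and 823 on the IFN-λ4 arrays. It was thus high on both IFN-α arrays, 3.47-fold and 3.80-fold above untreated, with an IFN-α against IFN-λ difference of 1.83 ± 0.26 (limma, adjusted p = 0.0680). PFKM, the muscle-type phosphofructokinase, stood at -1.04 with IFN-α at 16 h and between -0.45 and -0.24 on the other 5 arrays. LDHB and PFKM were the only genes of the 12 past 2-fold, and none was past it on an IFN-λ array. Over all genes, 2.83% to 5.75% passed it on the IFN-α arrays and 0.203% to 2.04% on the IFN-λ arrays, by array and direction.

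Of 18 genes of glucose and lactate transport and flux control 13 were tested. PFKFB1, the liver enzyme that sets the level of the allosteric activator of phosphofructokinase, read 336 untreated, 614 and 1808 with IFN-α, and 436 to 544 with IFN-λ. Its differences of 1.19 and 2.51 with IFN-α were the largest of the list. The glucose transporter SLC2A3 read 447 with IFN-α at 6 h against 246 untreated, which lay below the dim level. The lactate transporter SLC16A1 stood at -1.04 with IFN-α at 6 h and -0.93 with IFN-λ4 at 6 h. Of 8 gluconeogenesis genes 5 were tested, and G6PC3, a widely expressed glucose phosphatase of the endoplasmic reticulum, was lower at 6 h, at -1.45 with IFN-α and -1.12 with IFN-λ4. Of the pentose phosphate pathway 7 of 8 genes and of pyruvate dehydrogenase and the citric acid cycle 19 of 23 were tested, and 0 passed 2-fold on any array. Over all genes, 0.203% to 5.75% passed it, by array and direction.

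Of 20 hypoxia-inducible factor targets outside glycolysis 18 were tested. ADM, a vasodilator peptide, stood at 1.26 with IFN-α at 6 h and 0.35 to 0.84 on the others, and ANGPTL4, an inhibitor of lipoprotein lipase, at 0.23 and 1.15 with IFN-α and 0.59 to 0.996 with IFN-λ. ERO1A, an oxidase of the endoplasmic reticulum, stood at -1.09 with IFN-α at 16 h. DDIT4, an inhibitor of mTORC1 signalling, read 396 untreated and 209 with IFN-α at 16 h, where it lay below the dim level, so its difference has no exact size. The median of the 18 lay between -0.18 and 0.11 on the 6 arrays. Of 8 transcription factors tied to glycolysis 7 were tested. MYC stood at -1.30 with IFN-α at 16 h, and MLXIPL, the carbohydrate response factor, at 1.04 there, 1.05 with IFN-λ1 at 6 h and 1.36 with IFN-λ4 at 6 h. No gene of these lists, the 9 housekeeping genes included, was called by any of the 4 limma comparisons.

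ENO2 is also a neuron and neuroendocrine gene, so 9 other genes of those cells were followed beside it. Of these, SYP, SNAP25 and NEFL were below the dim level and 6 were above it, led by UCHL1. Their summed normalized intensity was 132905 in untreated cells, 159383 and 112490 on the IFN-α arrays of 6 h and 16 h, 122033 and 126682 on the IFN-λ1 arrays, and 144421 and 142437 on the IFN-λ4 arrays. Without UCHL1, which made up most of it, the sum was 11583 untreated, 22162 and 7549 for IFN-α, 19050 and 9786 for IFN-λ1, and 19463 and 11189 for IFN-λ4. Either sum was lowest on the array of IFN-α at 16 h, where ENO2 was highest. The sum without UCHL1 was above untreated on the 3 arrays of 6 h, where GAPDH was below it, and under untreated on the 3 of 16 h. TUBB3 and MAP2 made up most of that sum on every array, so its course is mainly theirs and not that of the list. MAP2, a dendrite protein, differed by 1.81, 0.73 and 0.84 at 6 h of IFN-α, IFN-λ1 and IFN-λ4, and by 0.11, -0.20 and 0.04 at 16 h. TUBB3, a neuronal tubulin, differed by 0.55, 0.86 and 0.89 at 6 h and by -1.29, -0.33 and -0.13 at 16 h. Of the leukocyte markers 5 of 8, of the fibroblast and stellate markers 4 of 7 and of the endothelial markers 4 of 6 were above the dim level, and PTPRC, CD3E, COL3A1, DCN and KDR were below it. The summed normalized intensities of those lists over the arrays ran from 7727 to 13872, from 4858 to 6613 and from 3390 to 4952. MS4A1, the B cell antigen CD20, read 391.9 untreated, 601 and 2833 with IFN-α and 369 to 771 with IFN-λ, and was thus 7.93-fold above untreated on the array where ENO2 was highest. These values are those of the brighter of its 2 probes, and the second was not looked at. The other leukocyte markers past 2-fold were LYZ (-1.44 with IFN-α at 6 h), ITGAM (-1.01 and -1.24 with IFN-α) and CD14 (1.09 with IFN-λ4 at 16 h), and MS4A1 was so also with IFN-λ4 at 6 h (1.21). PDGFRB, a receptor of fibroblasts and stellate cells, stood at -1.46 with IFN-α at 16 h. No endothelial marker passed 2-fold, against 0.203% to 5.75% of all genes by array and direction. Their part in the values of the glycolytic enzymes was not tested.

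The genes whose mean-centred profile over the 7 arrays was closest to that of ENO2, by root mean square distance over all 12835 genes, were NRG3 (0.166 log2 units), TMEM100 (0.171) and RASGEF1B (0.234), against a median distance of 1.15. NRG3, a ligand of the receptor ERBB4, stood at 0.29 and 2.30 with IFN-α, -1.26 and -0.53 on the IFN-λ1 arrays, and -0.61 and -0.50 on the IFN-λ4 arrays. The genes closest to GAPDH were UQCRC1 (0.053), FBXL15 (0.097) and NDUFV1 (0.136), against a median of 0.632. UQCRC1, a core subunit of respiratory complex III, stood at -1.51 and 0.03 with IFN-α, -0.45 and 0.09 on the IFN-λ1 arrays, and -0.52 and 0.17 on the IFN-λ4 arrays. These likenesses describe 7 arrays that share the scaling of each array, and they carry no test.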

How the data were processed

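Messenger RNA of Huh7 cells was measured on 7 single-colour arrays. Per the labels, total RNA was amplified and labelled with Cy5. The deposited table held 1 intensity for each of 31741 probes and array. On each array the lower values were whole multiples of 1 factor (0.819 to 1.37), as after a scaling of the array by that factor. Where that scaling was done is not given. Which scanner was used, how background was treated and what the scaling aimed at is not given in the sources used here.

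Intensities below 1 were set to 1, turned to log2 and quantile normalized. The deposited platform table gave 1 symbol for 24740 probes, 977 had several and 6024 none. Each of 18336 genes was represented by its brightest probe over all arrays, and the 12835 above the 30th percentile of mean intensity were tested. Among the named list genes, PFKM, SLC2A3, SLC16A1, ERO1A, MAP2, MS4A1, IFI6 and OAS1 had 2 probes. Only the brighter probe of each is reported. Single arrays were compared at 2-fold with no p-value, and groups with limma 3.58.1 in R 4.3.3 (variance trend, Benjamini-Hochberg at 0.05, two-sided), leaving 5 residual degrees of freedom for treatment and 2 for the blocked comparisons. Python 3.11.15, numpy 2.4.6, pandas 2.3.3 and matplotlib 3.10.9 did the rest, and the fits were tested on simulated data.

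The members and gene lists were chosen with earlier results of these data known. All members were named, with up to 6 genes of each other list that passed 2-fold or a test, the 3 genes closest in profile to ENO2 and to GAPDH, and IFI6, ISG15 and OAS1 as a check. Alternatives were median centring, the deposited scaling, the mean over probes, a raised floor, other filters and fold thresholds, a fit with no block or no variance trend, and leaving out each array.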

Additional observations from a re-analysis of the deposited data

Results flagged for a closer look

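After quantile normalization each gene here had every array of one set on one side of the untreated array and every array of the other set on the opposite side. The difference between the sets was not called by limma for any of them, and all differences share the single untreated array.

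ENO2 averaged 1.32 log2 units above untreated over the 2 IFN-α arrays and -0.88 over the 4 IFN-λ arrays, with the same signs under median centring and the deposited scaling. GAPDH averaged -0.81 over the 3 arrays of 6 h and 0.11 over the 3 of 16 h, a pattern that median centring and the deposited scaling broke at IFN-α and 16 h. DDIT4, the inhibitor of mTORC1 signalling, averaged -0.71 with IFN-α and 0.48 with IFN-λ, with a fitted difference of -1.19 ± 0.17 (limma, adjusted p = 0.0680). Its array of IFN-λ1 at 16 h stood at only 0.04 and turned to -0.12 with the deposited scaling, and with IFN-α at 16 h it was below the dim level, so these sizes are not exact. G6PC3, the glucose phosphatase, averaged -0.98 at 6 h and 0.15 at 16 h, with a fitted difference of 1.13 ± 0.27 (limma, adjusted p = 0.2025). Its array of IFN-λ1 at 16 h stood at 0.05 and turned to -0.022 with the deposited scaling. The opposite-side pattern itself was found in 1.56% of all genes for higher with IFN-α and lower with IFN-λ, in 1.52% for the reverse, and in 1.49% for lower at 6 h and higher at 16 h.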

How the results depend on the processing

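With 1 array per condition, array error and the interferon-by-time difference share the residual. Of 199 recomputed counts and offsets from the pathway median, 173 were kept and 26 moved, and no called value changed sign. A count was kept if within 1.5-fold of the reported one, and an offset if it stayed on the same side of 2-fold. An offset under 2-fold could thus change size or sign and still be kept. Genes called for IFN-α against both IFN-λ numbered 131 with median centring, 47 with the mean over probes and 4 above the 50th percentile, against 20 reported. For IFN-λ4 against IFN-λ1 the mean over probes and no filter on dim genes each gave 1. Leaving out each array gave 11 to 20 genes for treated against untreated, 0 to 2680 for 16 h against 6 h, 18 to 3452 for IFN-α against both IFN-λ, and 0 to 6 for IFN-λ4 against IFN-λ1. The blocked fits then had 1 residual degree of freedom. Without a block the counts were 0, 22 and 0. At 1.5-fold, members lower than untreated numbered 2 with IFN-α at 16 h, 1 with IFN-λ1 at 16 h and 2 with IFN-λ4 at 6 h. At 3-fold they numbered 1 with IFN-α at 6 h, 0 with IFN-α at 16 h and 0 with IFN-λ1 at 6 h. The shares of all genes at 1.5-fold and 3-fold were not counted, so these member counts have nothing to be set against. With the mean over probes 1 member was 2-fold lower with IFN-λ4 at 6 h. Of 550 recomputed member differences from limma, 13 became calls, all but 1 in fits without an array, and 43 that were not called turned sign. The causes of these changes were not tested. The reported fits pair the arrays, by interferon for the times and by time for the interferons.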
